A study of Sus scrofa with 8 samples.

Results

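The genes described here are those of the airway goblet cell and its mucins. Of 10 names sought (MUC5AC, MUC5B, MUC1, MUC4, MUC16, SPDEF, FOXA3, AGR2, TFF3 and FCGBP), 4 matched an identifier among the 22516 genes of the files by their gene name. These were SPDEF (ENSSSCG00000036573), FOXA3 (ENSSSCG00000003092), AGR2 (ENSSSCG00000015363) and TFF3 (ENSSSCG00000022857), and all 4 were among the 21318 genes tested. MUC5AC, MUC5B, MUC1, MUC4, MUC16 and FCGBP matched no identifier in the name table used and were not analysed here, so the split into secreted and membrane-bound mucins was described on the other mucin genes that matched.

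Transcripts of the olfactory epithelium (OE) were sequenced in sows sprayed in the nasal cavity with Boarmate, a commercial product of the boar pheromone androstenone, and in control sows that received no solution. All were offspring of Landrace boars and Rongchang sows, 8 months old and in estrus, and the OE was collected 30 min after the spray. Each group had 2 sows and 4 libraries, from the left and right OE, and the sources used here do not give which libraries share a sow. The p-values and SDs below therefore measure the spread between libraries, not between sows, and libraries of the same sow are not independent. Androstenone and the spraying itself cannot be told apart.

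Goblet cells are secretory cells of the airway surface that store mucins in granules and release them as mucus. Secreted gel-forming mucins make the mucus, whereas membrane-bound mucins stay anchored in the surface of epithelial cells. SPDEF and FOXA3 are transcription factors that drive goblet cell differentiation, AGR2 is a protein disulfide isomerase of the endoplasmic reticulum needed for mucin production, and TFF3 is a trefoil peptide secreted together with mucins. In the nasal cavity goblet cells belong to the respiratory epithelium, which lies next to the olfactory epithelium and also carries ciliated cells.

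The libraries held 81580146 to 100685566 counts, except control 1 with 4178330. Control 4 held the highest sum of bone and cartilage markers, 58880 TPM (transcript abundance scaled for length and library total), against 676 to 4182 in the other 7 libraries. That list held 6 of 7 genes called lower after androstenone, with a median log2 fold change of −4.36. The 9 measured of 10 olfactory neuron markers summed to 80.2 to 215 TPM. STOML3 reached 34.9 to 190 TPM, ANO2 3.18 to 50.4 TPM and GNAL 0.497 to 8.87 TPM, while RTP2 was at 0 in every library and OMP matched no identifier. STOML3 and ANO2 had the highest means of the list, 94.6 and 26.7 TPM. The means of ADCY3, CNGA2, CNGA4, GNG13 and RTP1 were 10.7, 1.91, 0.392, 0.169 and 0.0212 TPM. FOXJ1, the regulator of motile cilia in respiratory cells, reached 73.2 to 531 TPM. In such bulk tissue, fewer cells of a type and less RNA per cell cannot be told apart.

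The 4 goblet cell genes were highest in the same 3 libraries, control 3, androstenone 1 and androstenone 2. None differed between the groups at the study's cutoff (unadjusted p below 0.05 with a log2 fold change of 1 or more in either direction), and for each gene the libraries of the groups overlapped. Among all genes tested with the edgeR quasi-likelihood test, 434 passed that cutoff as higher after androstenone (2.04%) and 934 as lower (4.38%). After Benjamini-Hochberg adjustment 0 genes passed (0%), although 2415 had an unadjusted p below 0.05. Adjusted calls numbered 200 by the likelihood ratio test, 154 by the exact test, 670 by DESeq2 and 0 by limma voom.

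By mean TPM over the 8 libraries, TFF3 was the highest of the 4 genes at 1118, followed by AGR2 at 464, SPDEF at 52.8 and FOXA3 at 3.26. This order held within each of the 8 libraries. Across libraries the range of TFF3 (366 to 2563 TPM) overlapped that of AGR2 (107 to 1185 TPM), and AGR2 overlapped SPDEF (10.2 to 125 TPM). FOXA3 (0.824 to 7.69 TPM) lay below every library's value of SPDEF.

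SPDEF, an ETS-family transcription factor at chr7:30515925-30538095 (Sscrofa11.1), is required for the maturation of goblet cells. In TMM-scaled CPM (counts scaled to the library total), it reached 25.5, 46.5, 86.3 and 20.7 in controls 1 to 4, and 119, 142, 15.2 and 11.2 in androstenone libraries 1 to 4. Androstenone 1 and 2 lay above every control, while androstenone 3 and 4 lay below every control. The group means were 44.8 ± 29.9 CPM (SD, n = 4) in controls and 71.9 ± 68.4 CPM (SD, n = 4) after androstenone. The fitted log2 fold change was 0.68 (SE 0.85, 95% interval −1.26 to 2.62), with an adjusted p of 0.751 by the edgeR quasi-likelihood test, and limma voom turned its sign (−0.0219).

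FOXA3, a forkhead factor at chr6:52181095-52188777, acts with SPDEF in mucus-producing cells. It was the lowest of the 4 genes, at 2.67, 1.48, 6.73 and 1.22 CPM in controls 1 to 4 and 8.11, 9.77, 1.06 and 1.18 CPM in androstenone 1 to 4. The 3 libraries with high SPDEF were also the 3 with the highest FOXA3. Control 1 rested on 13 counts, which gave an exact 95% interval of 1.42 to 4.57 CPM for counting error alone. The log2 fold change was 0.72 (SE 0.86, 95% interval −1.24 to 2.69, edgeR adjusted p = 0.741).

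AGR2, at chr9:86042070-86053893, had the largest fitted difference of the 4. Its level was 58.8, 47.0, 293 and 78.6 CPM in controls 1 to 4 and 548, 599, 116 and 116 CPM in androstenone 1 to 4. Each androstenone library exceeded controls 1, 2 and 4, and control 3 exceeded androstenone 3 and 4. The mean was 119 ± 116 CPM (SD, n = 4) in controls and 345 ± 265 CPM (SD, n = 4) after androstenone. The log2 fold change was 1.53 (SE 0.78, 95% interval −0.26 to 3.32), with an unadjusted p of 0.0846 and an adjusted p of 0.485 by the edgeR quasi-likelihood test. The call of AGR2 turned on control 3: without it the log2 fold change was 2.49 with an unadjusted edgeR p of 0.00828, and the groups no longer overlapped. The likelihood ratio test on all 8 libraries also placed AGR2 past the cutoff.

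TFF3, at chr13:205641038-205644333, had the smallest ratio of highest to lowest control of the 4 genes, 3.53. It reached 269, 224, 615 and 174 CPM in controls 1 to 4 and 873, 1037, 189 and 143 CPM in androstenone 1 to 4. As with SPDEF, androstenone 1 and 2 were above every control, and androstenone 4 was below every control. The log2 fold change was 0.81 (SE 0.70, 95% interval −0.79 to 2.41, edgeR adjusted p = 0.654).

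**Figure D1:**
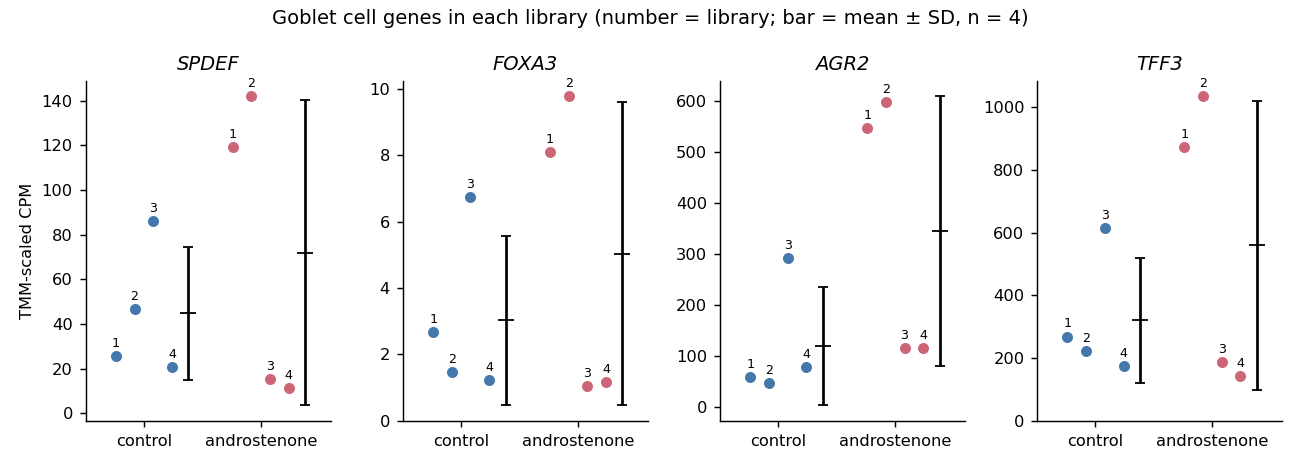
TMM-scaled CPM of SPDEF, FOXA3, AGR2 and TFF3 in each library, with points numbered by library (control in blue, androstenone in red) and a black bar for the mean ± SD of 4 libraries. Control 3, androstenone 1 and androstenone 2 are the 3 highest points in each panel, and for AGR2 they sit at 293, 548 and 599 CPM.

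For each gene the SD of the androstenone libraries exceeded the difference between the group means. Among the androstenone libraries the highest value was 12.7 times the lowest for SPDEF, 9.26 times for FOXA3, 5.18 times for AGR2 and 7.25 times for TFF3. Among controls the same ratios were 4.16, 5.53, 6.22 and 3.53. Exact two-sided permutation tests over the 70 assignments of libraries, whose smallest possible p is 0.0286, gave p = 0.514 for SPDEF, 0.543 for FOXA3, 0.171 for AGR2 and 0.4 for TFF3 on CPM. These tests treat libraries of the same sow as exchangeable with the rest, so that smallest p does not hold for sows.

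The 4 genes varied together across libraries. On log2 CPM over the 8 libraries, which came from 4 sows and share the same scaling, Pearson's r was 0.983 between FOXA3 and TFF3, 0.953 between SPDEF and TFF3 and 0.923 between SPDEF and FOXA3. AGR2 followed the others less closely, with r of 0.868 to TFF3, 0.842 to FOXA3 and 0.736 to SPDEF. Many genes shared the pattern: of 13449 named genes with a mean of at least 1 CPM, 1056 had r above 0.9 with AGR2, 906 with FOXA3, 849 with TFF3 and 196 with SPDEF.

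The 3 genes most like AGR2 were CDC20B (r = 0.997), a gene of multiciliated cell development, PRR13 (0.996) and GALNT3 (0.995), an enzyme that starts O-glycosylation. Those most like TFF3 were PPID (0.996), FADS6 (0.993) and PEX2 (0.993). For FOXA3 they were MRPL58 (0.994), TMEM241 (0.993) and COQ8B (0.991). For SPDEF, DPH1 (0.992) and CARD14 (0.982) were among them.

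Markers of respiratory ciliated cells moved with the goblet cell genes. The summed TPM of the 14 measured of 15 ciliated markers was 1363, 660, 3677 and 609 in controls 1 to 4 and 2539, 2869, 865 and 776 in androstenone 1 to 4, and none of the 14 was called. FOXJ1 correlated with FOXA3 at r = 0.947, TFF3 at 0.94, AGR2 at 0.892 and SPDEF at 0.801 over the 8 libraries. The part of ciliated cell content in the goblet gene levels was not tested. Relative to FOXJ1, TFF3 had 76.4, 139, 109 and 119 counts per 100 FOXJ1 counts in controls 1 to 4, and 116, 110, 75.4 and 65.8 in androstenone 1 to 4. These ratios spanned a narrower range than the TFF3 level, and the groups overlapped. AGR2 had 16.7 to 53.7 counts per 100 FOXJ1 counts in controls and 46.3 to 72.9 after androstenone, again with overlap. SPDEF had 28.7 counts per 100 of FOXJ1 in control 2, the highest of any library, and 5.16 in androstenone 4, the lowest.

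**Figure D2:**
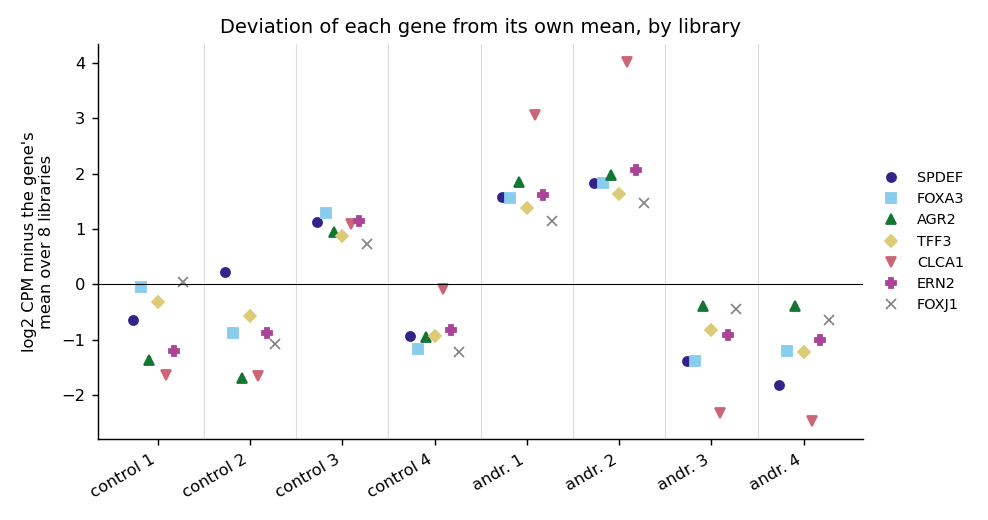
Log2 CPM of each gene minus that gene's mean over the 8 libraries, for the 4 goblet cell genes, CLCA1, ERN2 and the ciliated regulator FOXJ1, with the libraries side by side in no order within a group. All 7 genes are above their own mean in control 3, androstenone 1 and androstenone 2, and CLCA1 spreads the most, from 82.1 to 7402 CPM.

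Because AGR2 departed from the other genes, its ratio to TFF3 was examined after their values had been seen, and it is given as a description. AGR2 had 21.8, 21.0, 47.6 and 45.1 counts per 100 TFF3 counts in controls 1 to 4, and 62.7, 57.8, 61.4 and 80.8 in androstenone 1 to 4. All 4 androstenone libraries lay above all 4 controls, including androstenone 3 and 4, where both genes were low, unlike the ratio of AGR2 to FOXJ1, for which the groups overlapped. The mean was 33.9 ± 14.4 in controls and 65.7 ± 10.3 after androstenone (SD, n = 4 each). Of 21317 genes set against TFF3 in the same way, 88 (0.413%) lay above all controls in every androstenone library. A gene at 0 in any library could not be counted, so that share is a lower bound. Since the ratio was chosen from these values, the share is no test of it. The ratios of SPDEF and FOXA3 to TFF3 overlapped between the groups, at 10.8 ± 3.29 and 0.814 ± 0.178 per 100 after androstenone against 14.0 ± 4.82 and 0.861 ± 0.214 in controls.

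**Figure D3:**
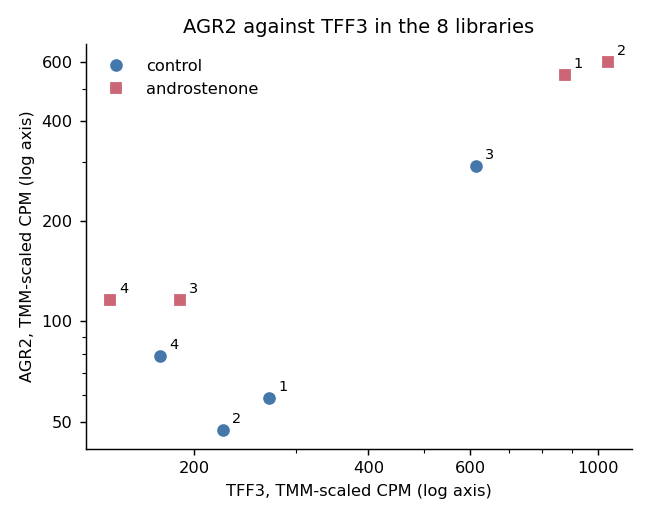
AGR2 against TFF3 in TMM-scaled CPM, both on log axes, with circles for controls and squares for androstenone and each point numbered by library. At like TFF3 levels of 143 to 269 CPM, androstenone 3 and 4 have 116 CPM of AGR2 and controls 1, 2 and 4 have 47.0 to 78.6 CPM.

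Of the secreted mucins, 3 of 7 listed genes were measured, and 1 was called. MUC6, a gel-forming mucin best known from gastric glands, was called lower after androstenone. Its counts were 5, 41, 34 and 58 in controls 1 to 4 and 11, 10, 7 and 42 in androstenone 1 to 4, so the call rested on 208 counts in all. In CPM these were 1.03, 0.447, 0.355 and 0.872 against 0.115, 0.103, 0.0778 and 0.418, and androstenone 4 exceeded control 3. MUC6 had a log2 fold change of −1.82 (SE 0.66, unadjusted p 0.024 and adjusted p 0.416 by the edgeR quasi-likelihood test). It was no longer called without control 4, androstenone 1, androstenone 2 or androstenone 3, where unadjusted p reached 0.0564 to 0.0703. It was also not called without both controls 1 and 4, nor on log2(TPM + 0.1), where the change was −0.911, or log2(TPM + 1), where it was −0.164.

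MUC2, the gel-forming mucin of intestinal goblet cells, had 0, 0, 4 and 1 counts in controls 1 to 4 and 0, 3, 0 and 0 in androstenone 1 to 4. Its log2 fold change of −1.11 (95% interval −4.27 to 2.06) thus rested on 8 counts. OVGP1, a secreted glycoprotein best known from the oviduct, was the highest of the secreted group at a mean of 7.81 TPM. It reached 8.83, 6.22, 12.4 and 4.23 CPM in controls 1 to 4 and 21.4, 21.7, 7.84 and 8.18 CPM in androstenone 1 to 4, with the goblet pattern but overlapping groups. Its log2 fold change was 0.91 (edgeR adjusted p = 0.489). It passed the cutoff without control 3 or without androstenone 3. In the annotation, MUC6 (chr2:630075-657967) and MUC2 (chr2:689363-719542) lie beside MUC5AC (chr2:757897-790321) and MUC5B (chr2:807685-842096), for which no value is given.

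Of the membrane-bound mucins, 3 of 11 listed genes were measured and none was called. MUC13, a transmembrane mucin of epithelial cells, reached 2.05, 2.19, 17.1 and 5.43 CPM in controls 1 to 4 and 23.7, 39.4, 2.84 and 3.25 CPM in androstenone 1 to 4. Its 3 highest libraries were those of the goblet cell genes, and its log2 fold change was 1.34 (edgeR adjusted p = 0.606). EMCN, the sialomucin of endothelial cells, was high in other libraries, at 21.4, 23.4, 1.38 and 16.5 CPM in controls and 3.74, 0.913, 25.01 and 18.3 CPM after androstenone. The lowest EMCN values fell in control 3, androstenone 1 and androstenone 2, and its log2 fold change was −0.38 (edgeR adjusted p = 0.899). MUC15 ranged from 0.403 to 1.55 TPM with a log2 fold change of −0.41 (edgeR adjusted p = 0.733).

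In the wider goblet and mucus lists, 70 of 91 genes were measured and tested. Of these, 0 were called higher and 3 lower, against 2.04% and 4.38% of all genes, and 40 had a fold change above 0, with a median log2 fold change of 0.135 against −0.021 over all genes. The groups did not overlap for 2 of the 70 genes that were higher after androstenone, against 3.89% of all genes, and for 1 that was lower, against 2.64%.

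All 10 goblet cell transcription factors were measured, and none was called. XBP1, which expands the secretory machinery, was the most abundant at a mean of 252 TPM and varied by 1.71-fold over all libraries. ELF3, an epithelial ETS factor, averaged 225 TPM and varied by 5.13-fold. Their log2 fold changes were 0.27 and 0.65, and the groups overlapped for each.

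Among 13 of 18 mucus granule and mucus-associated genes measured, 1 was called. SCGB1A1, the secretoglobin of club cells, was called lower after androstenone and was the most abundant of the list at a mean of 2091 TPM. Its level was 1145, 401, 299 and 47.9 CPM in controls 1 to 4 and 117, 58.2, 3.12 and 2.33 CPM in androstenone 1 to 4. Control 4 lay below androstenone 1 and 2, so the groups overlapped. SCGB1A1 had a log2 fold change of −3.39 (SE 1.39, unadjusted p 0.0386 and adjusted p 0.429 by the edgeR quasi-likelihood test). It was not called without control 1 (log2 fold change −2.47), nor without control 2, androstenone 2, androstenone 3 or androstenone 4, nor without both controls 1 and 4.

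CLCA1 and ERN2 were named after their values had been seen. CLCA1, a metalloprotease that goblet cells secrete with mucus, reached 146, 145, 976 and 432 CPM in controls 1 to 4 and 3792, 7402, 90.7 and 82.1 CPM in androstenone 1 to 4. Androstenone 1 and 2 were above every control and androstenone 3 and 4 below every control, a 90.2-fold range within the group. The fitted difference of CLCA1 on the log2 scale was 2.74 (SE 1.41, unadjusted p 0.0864 by the edgeR quasi-likelihood test). It passed the cutoff without androstenone 3 or androstenone 4 and by the likelihood ratio test, the exact test and DESeq2. The difference was 1.61 without androstenone 2, 1.11 by limma voom and 1.03 on log2(TPM + 0.1), none of them called. ERN2, the IRE1 beta stress sensor of mucus-secreting cells, reached 7.6, 9.54, 38.6 and 9.97 CPM in controls and 54.1, 73.3, 9.31 and 8.77 CPM after androstenone, with a log2 fold change of 1.13 (edgeR adjusted p = 0.596). ERN2, and MUC13 and GALNT3 of the other lists, passed the cutoff without control 3. Without androstenone 2 the log2 fold changes were 0.51 for ERN2, 0.516 for MUC13 and 0.94 for GALNT3.

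Among 23 of 26 mucin O-glycosylation enzymes measured, 1 was called. ST3GAL4, a sialyltransferase that caps glycan chains with sialic acid, was lower after androstenone. Its level was 19.1, 57.3, 41.5 and 45.9 CPM in controls 1 to 4 and 14.9, 14.8, 17.0 and 15.0 CPM in androstenone 1 to 4. The groups did not overlap, and the androstenone libraries lay within 1.15-fold of each other. The lowest control, control 1 at 19.1 CPM, rested on 93 counts, and its counting error was not computed. The mean was 40.9 ± 16.0 CPM (SD, n = 4) in controls and 15.4 ± 1.06 CPM (SD, n = 4) after androstenone. ST3GAL4 had a log2 fold change of −1.41 (SE 0.30, 95% interval −2.10 to −0.72), with an unadjusted p of 0.00138 and an adjusted p of 0.378 by the edgeR quasi-likelihood test. It was past the cutoff under each of 22 alternatives, among them the fit without control 4, the library with the most bone and cartilage transcripts. Without control 4, SCGB1A1 was also called and MUC6 was not, and the part of bone tissue in these 3 calls was not otherwise tested. GALNT3 was highest in the same 3 libraries as the goblet cell genes and the ciliated markers. It reached 11.09, 8.25, 55.2 and 17.0 CPM in controls and 94.9, 107, 22.4 and 17.9 CPM after androstenone. The log2 fold change of GALNT3 was 1.39 (edgeR adjusted p = 0.512). The most abundant enzymes of the list, ST6GALNAC2 (119 TPM) and ST6GALNAC4 (76.9 TPM), which add sialic acid to the first sugar of a chain, had log2 fold changes of 0.32 and 0.13 and overlapping groups.

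Of the inducers of goblet cell mucus (cytokines, their receptors, and Notch and epidermal growth factor signalling), 18 of 19 were measured and none was called. IL13, the cytokine best known for goblet cell induction, had 26 counts over all libraries. HES1, a target of Notch, and IL13RA1, a chain of the IL-13 receptor, were the most abundant at means of 69.7 and 57.0 TPM, and their log2 fold changes were 0.34 and 0.37. ADAM17, a protease that releases ligands of the epidermal growth factor receptor, and IL17RA, a receptor chain for IL-17, were the 2 genes that lay above all controls in every androstenone library on CPM. On TPM this did not hold for IL17RA, where androstenone 1 (30.38) lay below control 2 (30.46). Their levels were 43.7 ± 3.41 and 48.6 ± 3.01 CPM in controls and 63.5 ± 4.55 and 61.0 ± 1.23 CPM after androstenone (SD, n = 4 each). The log2 fold changes of 0.54 for ADAM17 and 0.33 for IL17RA were below the cutoff of 1, with adjusted p of 0.393 and 0.416 by the edgeR quasi-likelihood test.

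**Figure D4:**
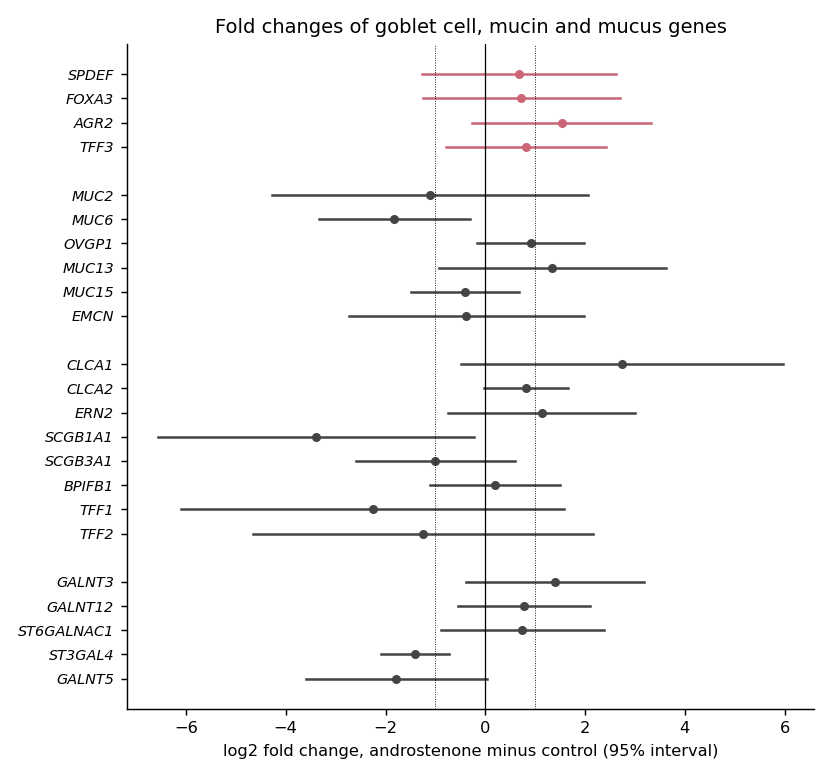
Log2 fold change, androstenone minus control, with its 95% interval for the 4 goblet cell genes (red) and for measured mucin, mucus and O-glycosylation genes (grey), with dotted lines at −1 and 1. The interval of each goblet cell gene crosses 0, while those of MUC6 (−3.33 to −0.305), SCGB1A1 (−6.56 to −0.224) and ST3GAL4 (−2.10 to −0.72) do not.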

How the data were processed

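RNA-seq of pig OE was analysed in 8 libraries, 4 per group. Reads were filtered by the authors with fastp 0.23.1, and transcripts of Sscrofa11.1 (Ensembl release 108) were quantified with Kallisto 0.48.0. The authors deposited an estimated count, not normalized, and a TPM value for each gene and library. The way transcripts were summed to genes was not given in the sources used here.

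Estimated counts were rounded, and a gene needed 1 count or more in total. TMM normalization was followed by the edgeR 4.0.16 quasi-likelihood test (R 4.3.3), with condition as the only term. The cutoff of unadjusted p below 0.05 with a log2 fold change of 1 or more in size is that of the study, and adjusted p-values are Benjamini-Hochberg over all genes tested. Single values were compared with exact permutation tests (Python 3.11.15, scipy 1.17.1). Counting intervals are exact Poisson and cover counting error only. Likeness was Pearson's r on log2 CPM with a prior count of 2. The edgeR and limma steps were tested on simulated data with independent libraries and a capped spread between them. That check does not cover libraries that share a sow or spreads above the cap. Replicate numbers did not pair libraries: same-number deviations correlated from −0.599 to 0.173. No 2 libraries agreed within sampling noise. Chi-square per gene (lower is closer at like depth, but it also falls with fewer counts) was 108.6 between androstenone 1 and 2 and 113.8 between androstenone 3 and 4. The other pairs within that group had 715 to 1085, so its 4 values may not be 4 independent ones. Values below 715 also occurred across the groups, whose sows differ. Control 3 had 366.5 and 351.4 against androstenone 1 and 2, and control 2 had 550.5 and 547.7 against androstenone 3 and 4. Among controls 2 to 4 the values were 1359 to 2929. Control 1, with the fewest counts, had 35.38 to 270 against the other libraries, and these values cannot be set beside those of the deeper pairs. Whether the close androstenone pairs each shared a sow was not tested.

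Names matched 15527 identifiers, and coordinates are RefSeq's on Sscrofa11.1. Genes named are the members, per list those past the cutoff and the 2 with the highest mean TPM, the 3 genes most like each member, and set markers, except 1 result that is not reported here. The members and lists were chosen with earlier results of these data known. The planned sums over MUC5AC and MUC5B and over MUC1, MUC4 and MUC16 were not made, since these genes had no matched identifier. Alternatives were other tests (DESeq2 1.42.0, limma 3.58.1), normalizations, filters, TPM, a replicate block, a stricter p and each library left out.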

Additional observations from a re-analysis of the deposited data

Results flagged for a closer look

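In 5 of 30 groups of 4 libraries, taken over 15 genes, 1 library stood apart from the other 3 by Dixon's 95% limit. Chance passes that limit in about 1 of 20 groups of independent, normally distributed values. The groups here were not independent, since AGR2 and ERN2 correlated at r = 0.948, so 5 of 30 is a description. AGR2 in control 3 was 293 CPM, with the next control at 78.6. ERN2 in control 3 was 38.6 CPM, with the next control at 9.97, so that control 3 stood apart for both. MUC6 in androstenone 4 was 0.418 CPM, with the next androstenone library at 0.115. MUC2 in androstenone 2 was 0.0308 CPM from 3 counts, with the others at 0. ST3GAL4 in androstenone 3 was 17.0 CPM, with the next at 15.0. The causes were not tested.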

How the results depend on the processing

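None of the 4 goblet cell genes was called with the edgeR quasi-likelihood test, nor under 20 of 22 alternatives. AGR2 alone was called (1 gene) by the likelihood ratio test and without control 3, so that leaving out 1 library gave 0 to 1 called and 0 to 1 non-overlapping. The log2 fold change of SPDEF reversed to −0.0219 by limma voom. Over the alternatives it ran from 0.15 to 1.57 for FOXA3, 0.98 to 2.49 for AGR2 and 0.30 to 1.33 for TFF3. Pathway calls went from 3 to 6 by the likelihood ratio test, 5 by the exact test, DESeq2 and limma voom, 2 on log2(TPM + 0.1) and log2(TPM + 1), 1 at p below 0.01, 1 without both controls 1 and 4 (chosen after seeing the data) and 4 with the replicate block, and 2 to 13 with 1 library left out. The highest of these was without control 3 and the second, 5, without control 1. Over all genes, 1368 calls became 583 with the replicate block, whose numbers share no more than a number and left 0 goblet genes called. They became 727 on log2(TPM + 0.1), 321 on log2(TPM + 1), 368 at p below 0.01 and 881 without controls 1 and 4. Leaving out 1 library gave 867 to 2414, lowest without androstenone 1 (881 without androstenone 2) and highest without control 3. Calls higher after androstenone were 31.7% of all calls, against 41.3% and 47.4% on the TPM scales and 48.4% with the block. Adjusted calls, 0 in the quasi-likelihood test, were 200, 154 and 670 by the likelihood ratio test, exact test and DESeq2, 2 on log2(TPM + 0.1) and 1 with library size only. The log2 ratio of AGR2 to TFF3, 1.05, was 0.853 to 1.25 with 1 library left out. The cause of each change was not tested. The planned sums over secreted and membrane-bound members were not run. The low count total of control 1 limits its precision. Its clean reads, as the study lists them, lie within the range of the other libraries, and the cause of the gap was not tested.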

Other observations

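Markers of other epithelial cells were set beside the goblet cell genes. Basal cell markers ran the other way in part: KRT15, a keratin of basal cells, reached 111, 104, 12.6 and 15.4 TPM in controls 1 to 4 and 27.1, 8.56, 498 and 152 TPM in androstenone 1 to 4. TP63, the basal cell regulator, was likewise highest in androstenone 3 at 83.2 TPM and lowest in androstenone 2 at 3.55 TPM. NGFR was too, at 40.7 and 1.01 TPM, while KRT17 was highest in control 1 at 76.8 TPM and lowest in control 4 at 12.05 TPM. KRT4, a keratin of non-cornified surface epithelium, reached 167 and 140 CPM in androstenone 1 and 2, but 24.97 CPM in control 3, where the goblet cell genes were also high. Of the 6 measured squamous genes, 2 had a fold change above 0 (KRT4 and KRT10) and 4 below 0, with a median log2 fold change of −0.828. KRT10 lay above all controls in every androstenone library, at 13.8 ± 1.82 CPM in controls and 20.1 ± 1.76 CPM after androstenone (SD, n = 4 each), with a log2 fold change of 0.55. None of the 4 measured basal genes and 6 measured squamous genes was called. KRT10 was the 1 gene of these lists whose groups did not overlap. Over all genes, 3.89% did not overlap with androstenone above and 2.64% with androstenone below.

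Of 8 nasal serous gland genes, 6 were measured, with 1 called higher and 1 lower, against 2.04% and 4.38% of all genes. LYZ, the secreted lysozyme, was called higher, with 59.6 ± 17.5 CPM in controls and 153 ± 78.9 CPM after androstenone (SD, n = 4 each, edgeR unadjusted p 0.00817). LPO, lactoperoxidase, was called lower at 1.26 ± 1.17 and 0.343 ± 0.222 CPM in the same order (edgeR unadjusted p 0.0424), on 482 counts in all. The libraries of the groups overlapped for LYZ and LPO. The other 4 were not called: LTF, PIGR, BPIFA1 and BPIFB2 had means of 2076, 4428, 1684 and 0.55 CPM in controls. After androstenone the means were 939, 4521, 2827 and 0.634 CPM in that order.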
